A study of Arabidopsis thaliana with 30 samples.

Results

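The SQUAMOSA PROMOTER BINDING PROTEIN-LIKE (SPL) genes that carry a target site for the microRNA miR156 were followed in leaf 3 of Arabidopsis thaliana Col-0. The set held 10 genes, SPL2, SPL3, SPL4, SPL5, SPL6, SPL9, SPL10, SPL11, SPL13A and SPL15, chosen by locus for this shared site. Of these, 9 matched 1 probe set each among 30237 probe sets for 29920 loci, and SPL13A (AT5G50570) was not analysed here. SPL10 and SPL11 lie next to each other in the genome, with 0 genes between them.

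The values came from 30 AGRONOMICS1 tiling arrays, 1 per RNA sample, in groups of 3 biological repeats. In one experiment seedlings received norflurazon or the MS medium control at 8 days after stratification (the cold treatment that synchronises germination). Leaf 3 was collected at day 9 and at day 10, which gave norflurazon and MS groups at each day. Norflurazon is a herbicide that blocks phytoene desaturase, an early enzyme of carotenoid synthesis, and so exposes chloroplasts to light damage. The other experiment, with no treatment named, collected leaf 3 at days 8, 9, 10, 11, 12 and 13. All seedlings were wild-type Col-0 grown in vitro on MS medium in long days. Neither the dose of norflurazon nor the number of leaves pooled in a sample is stated in the sources used.

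SPL proteins are plant transcription factors with a zinc-binding SBP domain. In young Arabidopsis plants miR156 is abundant and cuts or blocks translation of its SPL transcripts; as the shoot ages miR156 declines and the SPL proteins promote adult leaf traits and, later, flowering. This control by age has mostly been described between successive leaves of a shoot, while the groups here are ages of 1 leaf. The arrays measured transcripts per locus and not mature miR156, and repression at translation would leave no mark in these values.

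Values are log2 intensities, so a difference of 1 is a doubling. They can be compared between arrays of an experiment for 1 gene, but not between genes, nor as levels between the experiments, whose array medians differed (2.81 to 2.88 with norflurazon and its controls, 3.50 to 3.63 over the 6 ages). Arrays of a group correlated at 0.976 or more. Each difference stands with its standard error from limma, written after ±, and a gene is said to have risen or fallen where the p-value adjusted over all 30237 probe sets was under 0.05. In the time course some age means lay at or below the median of their arrays (3.56 to 3.62), those of SPL3 and SPL4 at days 8 and 9, SPL5 at days 8, 10 and 11, SPL11 at day 8 and SPL6 at all 6 ages. Differences with 1 such mean are lower limits of their size as far as dim signal goes. Such a limit leaves out the error after ± and the effect of other processing, so an estimate can still fall below it. Where both means are of this kind the size has no limit in either direction. In the norflurazon experiment all 9 members lay above the array medians. Markers of shoot meristem, flower and root lay below the array medians on average, with list means of 2.20 to 2.81 on the arrays of the norflurazon experiment and 2.86 to 3.49 on those of the 6 ages.

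Leaf age was the first comparison. Of the 9 members, 6 rose between day 8 and day 13 and 0 fell, against 33.7% of all probe sets called in this comparison (13.9% higher and 19.8% lower). The median difference was 0.54 over the members and 0.02 over all probe sets. In the F test over all 6 ages 7 of 9 members changed, against 32.4% of all probe sets. The genes that rose were SPL3, SPL4 and SPL5 of the small-protein group and SPL2, SPL10 and SPL11 of a second group, while SPL9, SPL15 and SPL6 did not pass the test between days 8 and 13. In whole-leaf RNA a change in the share of cells of a type and a change in RNA per cell cannot be told apart.

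SPL3, SPL4 and SPL5 encode short proteins made up of little more than the SBP domain, carry the miR156 site in the untranslated region behind the coding sequence, and promote flowering. SPL3 (AT2G33810) read 2.63, 2.56 and 2.59 at day 8, 3.22, 3.22 and 3.00 at day 9, and 3.42, 4.17 and 4.17 at day 10. It read 3.47, 3.53 and 3.94 at day 11, 4.15, 3.86 and 4.46 at day 12, and 4.35, 4.02 and 3.69 at day 13. Every array of days 10 to 13 lay above every array of days 8 and 9, and the arrays of day 9 lay above those of day 8. Probe sets with such separate arrays were not counted over the whole array, so this order carries no test. The difference between days 9 and 8 was not called (adjusted p = 0.245), with both means below the array median. SPL3 averaged 4.02 ± 0.33 at day 13 and 2.59 ± 0.04 at day 8 (SD, n = 3 each), a difference of 1.43 ± 0.21 (adjusted p = 3.2e-05). Its age means spanned 1.57 (F test, adjusted p = 6.4e-05), the widest range of the 9 members. In the order of its age means, days 12, 13, 10 and 11 came above day 9 and day 8, with 4.16, 4.02, 3.92 and 3.65 against 3.15 and 2.59, and the arrays of days 10 to 13 overlapped one another.

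SPL4 (AT1G53160) read 3.61, 3.73 and 3.72 at day 13 and 3.23, 3.16 and 3.17 at day 8. The arrays of these ages did not overlap, and SPL4 was higher by 0.50 ± 0.12 at day 13 (adjusted p = 0.00292). From day 10 on its age means stayed between 3.65 and 3.78. SPL5 (AT3G15270) read 3.73, 3.71 and 3.96 at day 13 and 3.15, 3.24 and 3.26 at day 8. Here too the arrays were apart, by 0.58 ± 0.13 (adjusted p = 0.00193). In the F test over 6 ages SPL4 had an adjusted p of 0.00452 and SPL5 of 0.0198; the SPL5 call was lost without repeat 1 (0.0655) or repeat 2 (0.0518) of day 8.

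SPL2, SPL10 and SPL11 are close relatives that shape the leaf lamina and the traits of adult and cauline leaves. SPL2 (AT5G43270) had age means of 4.35, 4.37, 4.24, 4.48, 4.90 and 5.09 at days 8 to 13. Its single arrays read 4.31, 4.33 and 4.40 at day 8, 4.58, 5.08 and 5.03 at day 12, and 4.80, 5.07 and 5.39 at day 13. The 6 arrays of days 12 and 13 lay above all 12 earlier ones, but such separation was not counted over all probe sets. No 1-day interval was called for SPL2 (adjusted p of 0.239 or more), so the time of its rise was not shown. Between days 8 and 13 SPL2 rose by 0.74 ± 0.15 (adjusted p = 0.000712, F test 0.000738).

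SPL11 (AT1G27360) had age means of 3.58, 3.71, 3.88, 4.0, 4.26 and 4.35 at days 8 to 13, each above the one before. It read 4.50, 4.32 and 4.21 at day 13 and 3.63, 3.23 and 3.88 at day 8. The ages did not overlap, with a difference of 0.76 ± 0.15 (adjusted p = 0.000735; F test 0.00353). Its neighbour SPL10 (AT1G27370) read 4.28, 4.66 and 4.62 at day 13 and 3.88, 4.14 and 3.92 at day 8, a difference of 0.54 ± 0.17 (adjusted p = 0.0228; F test 0.0153). SPL10 had its lowest age mean at day 10 (3.76 ± 0.04, SD, n = 3), and its arrays at days 11 to 13 all lay above those of day 10. The SPL10 difference between days 13 and 8 missed the threshold without repeat 1 or 3 of day 8 (adjusted p = 0.0783 and 0.0660) and without repeat 2 or 3 of day 13 (0.0888 and 0.0756).

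SPL9 and SPL15 are a pair of paralogues that slow the initiation of new leaves and drive adult leaf traits, and SPL9 also activates MIR172 transcription. SPL9 (AT2G42200) had age means of 4.76, 4.79, 4.64, 4.96, 4.84 and 4.44 at days 8 to 13. It read 4.91, 4.70 and 4.67 at day 8, 5.05, 4.99 and 4.84 at day 11, 4.88, 5.02 and 4.62 at day 12, and 4.55, 4.20 and 4.58 at day 13. All arrays of day 13 lay below those of days 8, 9, 11 and 12 and overlapped with those of day 10, and SPL9 was the one member whose day 13 arrays were all below its day 8 arrays. The difference of -0.31 ± 0.13 between days 13 and 8 missed the threshold (adjusted p = 0.0655), with a 95% interval of -0.58 to -0.05. It passed with each array centred on its median (adjusted p = 0.0465), without dim probe sets (0.0431), in 1 fit over all 30 arrays (0.0188) and without repeat 3 of day 13 (-0.38, 0.0480). Its F test over 6 ages passed narrowly (adjusted p = 0.0442). That call remained only without repeat 1 of day 8, repeat 1 of day 9, repeat 3 of day 11, repeat 2 or 3 of day 12 or repeat 3 of day 13, and was lost without each of the other 12 arrays, up to 0.154 without repeat 2 of day 13.

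SPL15 (AT3G57920) had age means of 3.66 to 3.93 and a difference of -0.16 ± 0.14 between days 13 and 8 (adjusted p = 0.451, 95% interval -0.46 to 0.14). SPL6 (AT1G69170), which has been linked to immune receptor signalling, had the narrowest range, with age means of 3.39 to 3.53. Its difference was 0.13 ± 0.11 (adjusted p = 0.430, 95% interval -0.11 to 0.37). Neither SPL15 nor SPL6 passed the F test (adjusted p = 0.659 and 0.827), and the interval of SPL15 still allows a change of up to 0.46 in size. SPL6 lay at or below the array median at every age, so its interval sets no limit on a change.

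**Figure D1:**
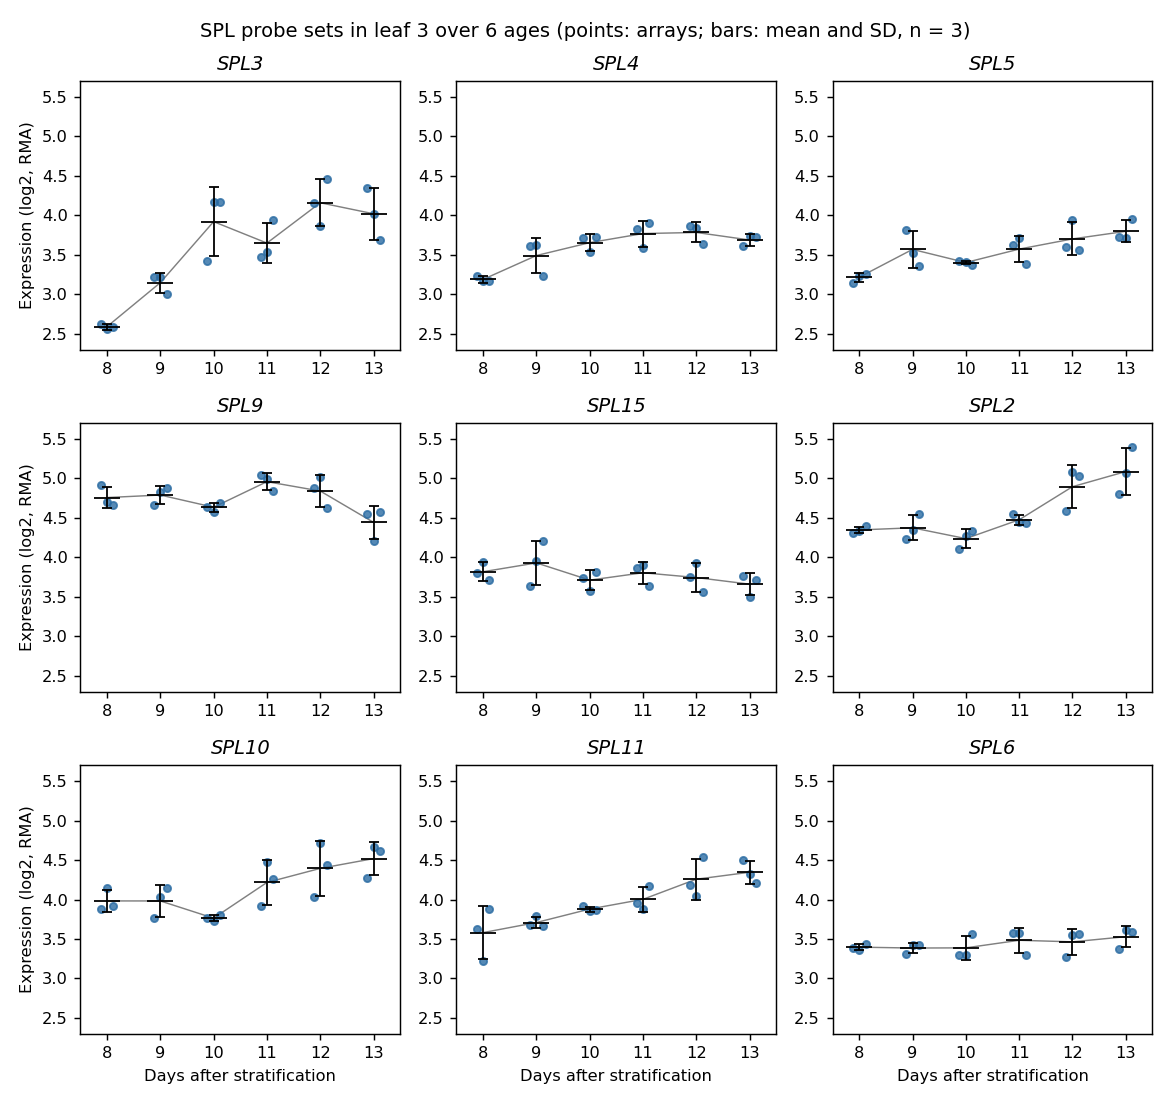
Expression (log2, RMA) of the 9 SPL probe sets against days after stratification in the time course, with points for arrays and bars for mean and SD (n = 3), on 1 shared vertical scale. The age means of SPL3 at days 8, 9 and 10 are 2.59, 3.15 and 3.92. SPL2 and SPL11 reach their highest means at day 13 (5.09 and 4.35), SPL9 has its lowest mean at day 13 (4.44), and SPL15 and SPL6 stay within 0.27 and 0.14.

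The single days were compared next, to place these changes in time. Between days 9 and 8 no member passed the test (0 of 9, against 1.28% of all probe sets). An unadjusted p under 0.05 was met by 3 of 9 members, against 3705 of all 30237 probe sets. The 3 members were the small-protein genes, SPL3 with 0.56 ± 0.21 (adjusted p = 0.245), SPL5 with 0.35 ± 0.13 (0.240) and SPL4 with 0.30 ± 0.12 (0.276). In each of them the arrays of day 9 lay above those of day 8. They were picked by that p-value, and probe sets with separate arrays were not counted over the whole array. The separation thus adds no support for a rise. SPL3 and SPL4 had means at or below the array median at both days. Between days 10 and 9 SPL3 rose, alone of the 9 members, by at least 0.77 ± 0.21 (adjusted p = 0.0330; its day 9 mean lay below the array median), against 7.38% of all probe sets called (2.37% higher). This call was lost without any 1 of repeats 1, 2 and 3 of day 9 (0.0647, 0.0577 and 0.134) or of repeats 2 and 3 of day 10 (0.149 and 0.132). It was also lost when the arrays were quantile normalized again (0.72, adjusted p = 0.0653) or when only the 6 arrays compared were fitted (0.0871).

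After day 10 the limma fit called no member in any interval. The counts were 0 of 9 between days 11 and 10 (0% of all probe sets, 2 members at an unadjusted p under 0.05), between days 12 and 11 (0.695%, 2 members) and between days 13 and 12 (1.54%, 1 member). Of all 30237 probe sets, 2156, 3541 and 4199 had an unadjusted p under 0.05 in these intervals. The members with such unadjusted p-values were SPL10 (0.45 ± 0.17, adjusted p = 0.596) and SPL9 (0.32 ± 0.13, 0.604) between days 11 and 10. Between days 12 and 11 they were SPL3 (0.51 ± 0.21, 0.334) and SPL2 (0.42 ± 0.15, 0.239), and between days 13 and 12 SPL9 alone (-0.40 ± 0.13, 0.135), whose day 13 arrays lay below those of day 12. That SPL9 difference passed in 1 fit over all 30 arrays (adjusted p = 0.0273).

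**Figure D2:**
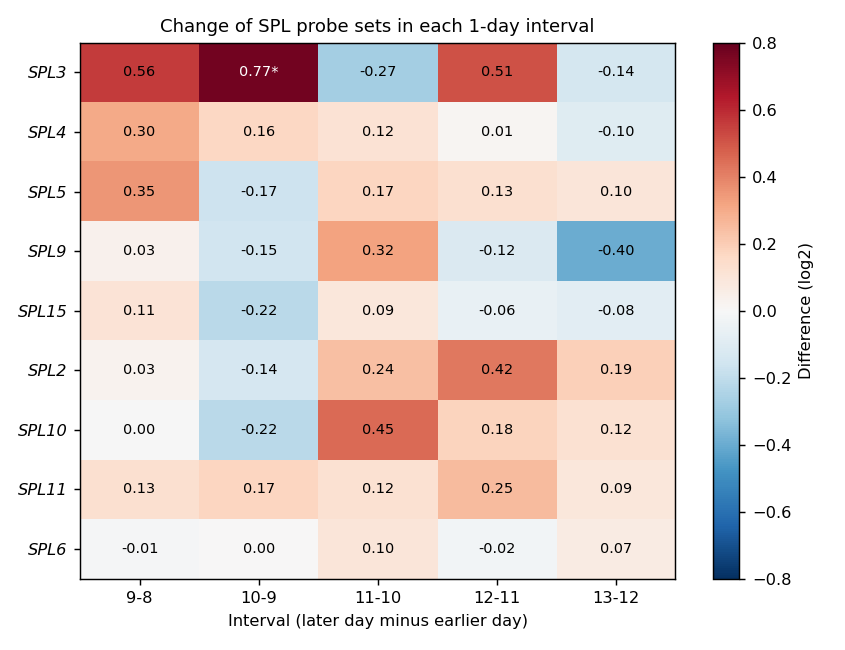
Difference (log2, later day minus earlier day) of the 9 SPL probe sets in each 1-day interval of the time course, with warm colours for higher and cool colours for lower at the later day and an asterisk for an adjusted p under 0.05. SPL3 between days 10 and 9 (0.77) carries the only asterisk, and SPL9 between days 13 and 12 (-0.40) is the lowest value. Among the 9 probe sets, the highest values between days 9 and 8 are those of SPL3, SPL5 and SPL4, none of them called.

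By the rule for genes of like pattern (members called in the F test with age means spanning at least 1, which only SPL3 met), the named genes closest to SPL3 over the 18 time course arrays were TL29 (Pearson r = 0.943), NdhS (0.939) and LYC (0.939). TL29 encodes a protein of the thylakoid lumen, NdhS a subunit of the chloroplast NDH complex and LYC lycopene cyclase. Between days 13 and 8 TL29 rose by 1.30, NdhS by 2.25 and LYC by 1.38. These arrays share their ages, so r describes likeness over the series and carries no test.

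Norflurazon was the second question. At day 9 the treatment changed 2 of 9 members, SPL3 downwards and SPL9 upwards, against 7.43% of all probe sets (3.60% higher and 3.83% lower). At day 10 it changed 1 of 9, SPL4 downwards, against 0.771% of all probe sets (0.374% lower). The medians over the members were -0.07 at day 9 and -0.12 at day 10, with -0.01 and 0.00 over all probe sets.

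SPL3 read 3.62, 3.57 and 3.54 in norflurazon leaves at day 9, against 5.07, 5.55 and 6.08 in MS leaves. The treated arrays lay close together and far below the controls, which were spread more widely. SPL3 averaged 3.58 ± 0.04 in norflurazon leaves and 5.57 ± 0.51 in MS leaves (SD, n = 3 each), a difference of -1.99 ± 0.19 (adjusted p = 0.000171). At day 10 it read 3.76, 3.87 and 3.72 in norflurazon leaves and 4.23, 4.16 and 4.39 in MS leaves. The groups were again apart, but the difference of -0.47 ± 0.19 missed the threshold (adjusted p = 0.272, 95% interval -0.88 to -0.07).

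The effect of norflurazon on SPL3 at day 10 minus that at day 9 was 1.52 ± 0.26 (adjusted p = 0.0134), and SPL3 was the 1 member of 9 called in this interaction, against 1.95% of all probe sets (1.26% upwards). In MS leaves SPL3 was lower at day 10 than at day 9 (-1.31 ± 0.19, adjusted p = 0.000726), as 1 of 9 members, against 11.5% of all probe sets (6.31% lower). In norflurazon leaves the same difference was 0.21 ± 0.19 (adjusted p = 0.785). Without repeat 1 of MS at day 9, SPL10 was called as well in MS leaves, with -0.44 (adjusted p = 0.0248), against -0.25 ± 0.14 over all 3 repeats (adjusted p = 0.336).

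SPL9 read 5.83, 5.77 and 5.93 in norflurazon leaves at day 9 and 5.44, 5.52 and 5.49 in MS leaves. The treated arrays all lay above the controls, by 0.36 ± 0.07 (adjusted p = 0.0110). With only these 6 arrays in the fit the adjusted p was 0.0550. At day 10 the SPL9 arrays overlapped, with 5.52, 5.61 and 5.62 in norflurazon leaves and 5.48, 5.48 and 5.63 in MS leaves (difference 0.05 ± 0.07, adjusted p = 0.816). The change of its norflurazon effect between the days was -0.31 ± 0.10 (adjusted p = 0.185), so the days were not shown to differ for SPL9.

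SPL4 read 3.99, 4.07 and 4.12 in norflurazon leaves at day 10 and 4.44, 4.48 and 4.46 in MS leaves. The groups were apart by -0.40 ± 0.07 (adjusted p = 0.0290). The call was lost without any 1 of the 6 arrays of day 10 (adjusted p = 0.0634 to 0.119), with the repeat number as a block (0.0607), with only the 6 arrays compared (0.0593) and in 1 fit over all 30 arrays (0.115). At day 9 SPL4 read 4.35, 4.40 and 4.42 in norflurazon leaves and 4.63, 4.45 and 4.45 in MS leaves. That difference was -0.12 ± 0.07 (adjusted p = 0.402), and the change of the effect between the days was -0.28 ± 0.10 (0.216). In norflurazon leaves SPL4 was lower by 0.33 at day 10 than at day 9 (-0.33 ± 0.07, adjusted p = 0.0353; 1 of 9 members against 1.96% of all probe sets, 0.314% lower). This call was lost without any 1 of the 6 arrays (0.0686 to 0.138), with the repeat number as a block (0.0787), with arrays centred on their medians (0.0516), with an intensity trend (0.0512), with only those 6 arrays (0.0982) and over all 30 arrays (0.129).

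The remaining 6 members passed at neither day. SPL5 differed by -0.16 ± 0.11 at day 9 (adjusted p = 0.501) and by -0.01 ± 0.11 at day 10 (0.977). SPL2 read 5.12, 5.13 and 5.27 in norflurazon leaves at day 9 against 4.99, 5.01 and 5.09 in MS leaves, and 4.74, 4.95 and 5.07 at day 10 against 5.21, 5.02 and 5.09. Its difference was thus 0.14 ± 0.09 at day 9 and -0.19 ± 0.09 at day 10 (adjusted p = 0.457 and 0.391), and the change between the days was -0.33 ± 0.13 (0.265). SPL10 differed by -0.07 and -0.12 at days 9 and 10, SPL11 by -0.02 and -0.06, SPL15 by 0.08 and -0.19 and SPL6 by -0.17 and 0.12, with adjusted p-values of 0.526 to 0.974. The widest 95% intervals among these genes were those of SPL11, with -0.38 to 0.34 at day 9 and -0.42 to 0.30 at day 10. That of SPL6 at day 9 reached from -0.44 to 0.10, and that of SPL10 at day 10 from -0.43 to 0.19.

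**Figure D3:**
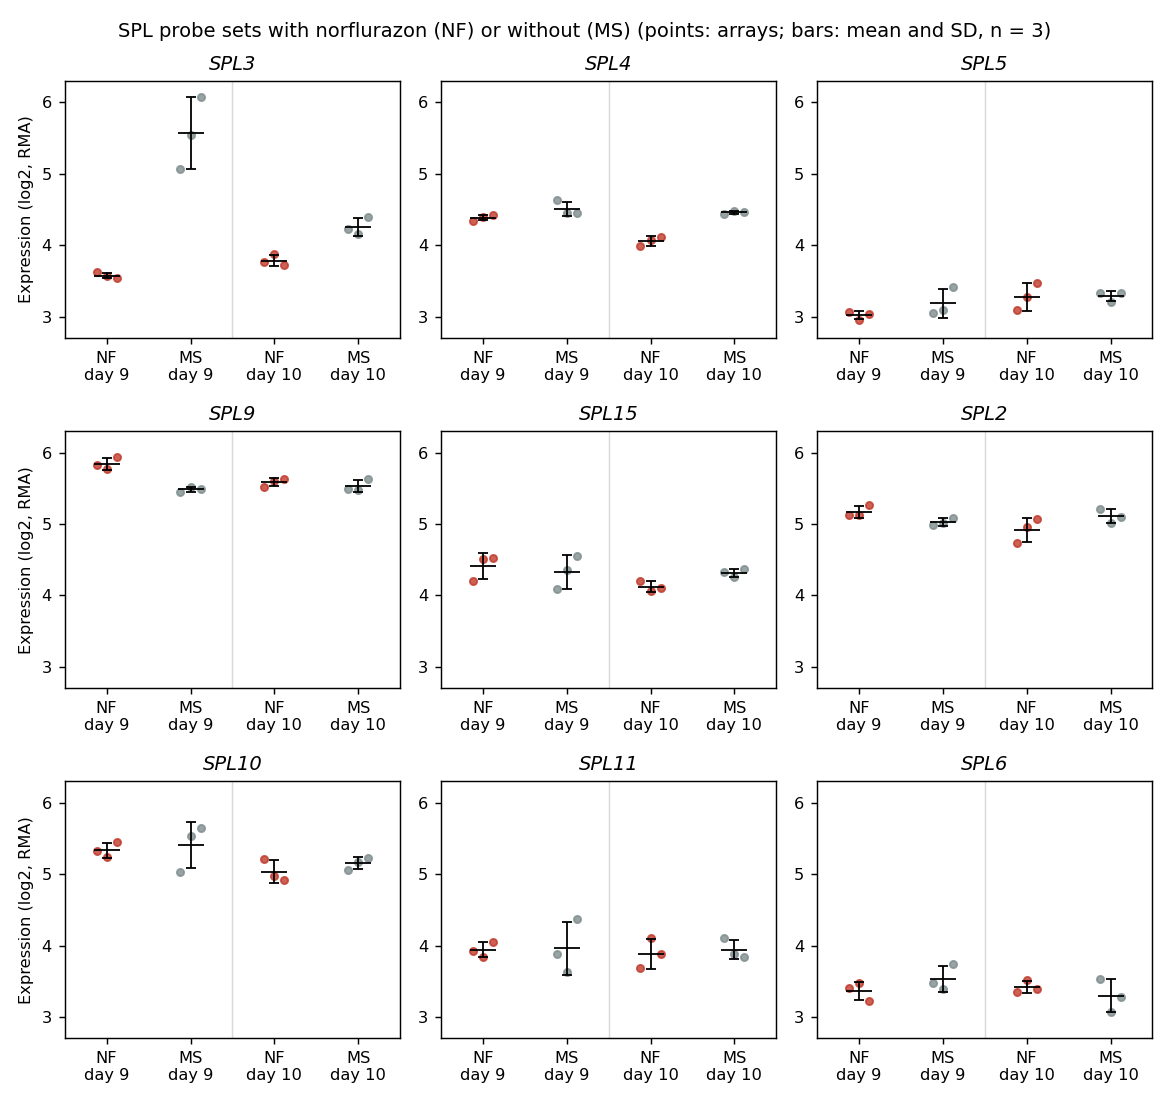
Expression (log2, RMA) of the 9 SPL probe sets in norflurazon (NF, red) and MS (grey) leaves at days 9 and 10, with points for arrays and bars for mean and SD (n = 3). The MS arrays of SPL3 at day 9 (5.07 to 6.08) stand above its other 9 arrays, SPL9 is higher in NF at day 9, and SPL4 is lower in NF at day 10.

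**Figure D4:**
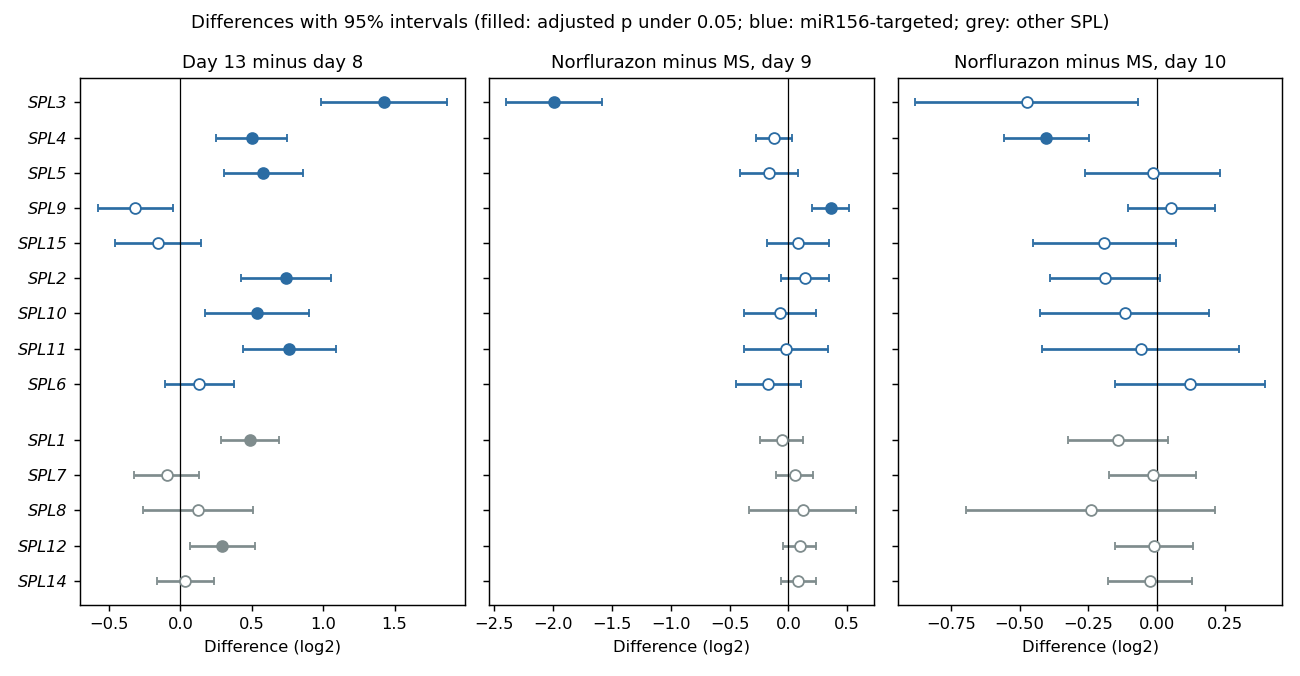
Differences (log2) with 95% intervals for the 9 miR156-targeted SPL genes (blue) and 5 SPL genes without the site (grey), between days 13 and 8 and between norflurazon and MS leaves at days 9 and 10, on a horizontal scale of its own in each panel, with filled points for an adjusted p under 0.05. Filled blue points are SPL2, SPL3, SPL4, SPL5, SPL10 and SPL11 for age, SPL3 and SPL9 at day 9, and SPL4 at day 10.

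The interval of days 9 to 10 was measured in both experiments, and SPL3 went opposite ways in them. MS leaves had 4.26 ± 0.12 at day 10 and 5.57 ± 0.51 at day 9 (SD, n = 3 each), while the time course had 3.92 ± 0.43 at day 10 and 3.15 ± 0.13 at day 9. In 1 fit over all 30 arrays, a comparison chosen after these values were seen, the difference in MS leaves minus that in the time course was -2.08 ± 0.30 for SPL3 (adjusted p = 0.000127), against 6.81% of all probe sets called. This is a lower limit of its size, since day 9 of the time course lay below the array median. The other 8 members were not called, with values of -0.24 to 0.27. Over the alternatives run, SPL3 stayed between -2.33 and -1.77, with an adjusted p of at most 0.00255. Whether the experiments were normalized together, and what differed between them besides the treatment step, is not stated in the sources used, so experiment and control handling cannot be told apart.

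Another 5 SPL genes, which lack the miR156 site and had a probe set and a matching name, set a comparison within the family. SPL16 had a probe set but was left out, since its name did not match the gene table. Of the 5 analysed, 2 rose between days 8 and 13, against 13.9% of all probe sets. SPL1 rose by 0.49 ± 0.10 (adjusted p = 0.000644). SPL12, its close relative, rose by 0.29 ± 0.11 (0.0434), a call lost in 7 of 13 alternatives, among them without repeat 2 or 3 of day 8 (0.0930 and 0.165) and without repeat 2 or 3 of day 13 (0.130 and 0.133). SPL7, the regulator of the copper deficiency response, differed by -0.10 ± 0.11 (0.558). The list's median was 0.12, against 0.54 over the members with the site and 0.02 over all probe sets. Norflurazon changed 0 of 5 at day 9 and 0 of 5 at day 10, and SPL7 differed by 0.05 and -0.01.

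Upstream of the SPL genes, 4 MIR156 and MIR157 loci had a probe set, and 8 others on the list, MIR156A among them, were not analysed here. Between days 8 and 13, 1 of 4 rose and 0 fell. MIR157C and MIR157D lay below the array medians at both ages and MIR156H at day 8. The count thus sets no limit on a change of MIR157C or MIR157D. Here and in the lists that follow, calls between these days stand against 13.9% of all probe sets higher and 19.8% lower. Calls for norflurazon stand against 3.60% higher and 3.83% lower at day 9, and against 0.771% called at day 10 (0.374% lower). MIR156C rose by 0.55 ± 0.19 (adjusted p = 0.0344), a call lost without repeat 1 of day 8 (0.37, 0.186), repeat 2 of day 13 (0.0655) or repeat 3 of day 13 (0.139). These probe sets read primary transcripts. Norflurazon changed 0 of 4 at either day. MIR156C lay below the array medians in both groups (adjusted p = 0.812 and 0.861), as did MIR157C and MIR157D.

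Of 11 genes known to act on MIR156 transcription, 2 rose and 3 fell between days 8 and 13, shares near those of all probe sets. CAO, a chlorophyll b synthesis enzyme whose loss raises miR156, rose by 1.96 ± 0.18 (adjusted p = 1.90e-07). TPS1, which makes trehalose 6-phosphate, a sugar signal that lowers miR156, rose by 0.81 ± 0.12 (2.38e-05). AGL15, a MADS factor that promotes MIR156 transcription, fell by at least 0.80 (-0.80 ± 0.13, 0.000107), and the chromatin remodeller PKL by 0.49 (-0.49 ± 0.12, 0.00391). HXK1, the glucose sensor, differed by -0.11 ± 0.14 (0.608). In norflurazon leaves at day 9, 1 of 11 was higher, CAO by 0.56 ± 0.10 (0.00536), while AGL15 (0.29 ± 0.09, 0.0804) and HXK1 (0.21 ± 0.07, 0.0947) missed the threshold. At day 10, 0 of 11 passed, and HXK1 differed by 0.08.

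Downstream, the miR172 module relays SPL activity: SPL9 activates MIR172B, and miR172 represses the AP2-like repressors of adult traits and flowering. MIR172B was not analysed here, and 0 of 4 other MIR172 loci passed between days 8 and 13 or under norflurazon at either day. The means of all 4 lay below the array medians at days 8 and 13, so the age result sets no limit on a change. In the norflurazon experiment those of MIR172A and MIR172C lay below the array medians in every group. Of the 6 AP2-like genes, 2 rose and 3 fell between days 8 and 13. AP2 read 3.64 to 4.07 at day 13 and 5.50 to 6.0 at day 8, a difference of -1.91 ± 0.14 (adjusted p = 2.10e-08). SMZ was lower by at least 0.93 (-0.93 ± 0.20, 0.00145). SNZ read 5.38 to 5.76 at day 13 and 3.11 to 3.39 at day 8, at least 2.28 ± 0.12 higher (9.09e-10), and TOE3 was at least 1.32 ± 0.18 higher (1.31e-05). The members of this family thus went in both directions, while TOE1 differed by 0.17 ± 0.11 (0.276). In norflurazon leaves at day 9, 1 of 6 passed, TOE1, with 5.57 to 5.86 in norflurazon leaves and 5.14 to 5.31 in MS leaves (0.53 ± 0.09, 0.00458). At day 10, 0 of 6 passed.

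Among 8 genes known as direct targets of SPL proteins, 2 rose and 1 fell between days 8 and 13, against 33.7% of all probe sets called, so the share called was near that of the whole array. SOC1, a MADS factor that promotes flowering, read 5.65 to 6.37 at day 13 and 4.63 to 5.21 at day 8, a difference of 1.08 ± 0.24 (adjusted p = 0.00171). FUL, another flowering MADS gene, was at least 0.76 ± 0.14 higher (0.000240). LFY, the regulator of flower identity, was lower by at least 0.40 (-0.40 ± 0.11, 0.00641), at values below the array median at day 13; with only the 6 arrays compared its adjusted p was 0.0514. Norflurazon changed 0 of 8 at day 9 and 0 of 8 at day 10. SOC1 differed by -0.30 ± 0.14 at day 9 (0.272) and FUL by -0.34 ± 0.18 (0.348).

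**Figure D5:**
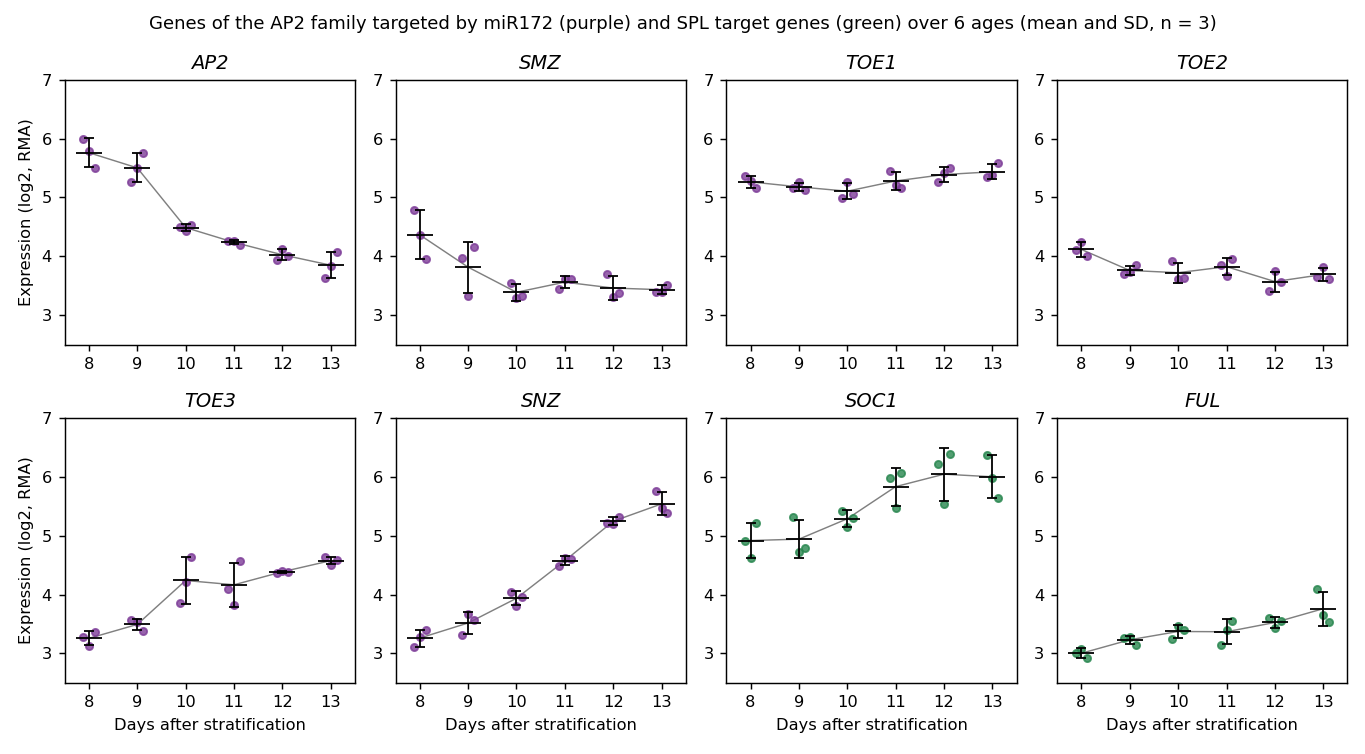
Expression (log2, RMA) of 6 AP2-like genes targeted by miR172 (purple) and of the SPL targets SOC1 and FUL (green) against days after stratification, with points for arrays and bars for mean and SD (n = 3). AP2 and SMZ are lower and SNZ, TOE3, SOC1 and FUL higher at day 13 than at day 8, and TOE1 shows no called difference.

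Of 7 genes of the microRNA machinery, 4 fell and 0 rose between days 8 and 13, among them AGO1, the protein that carries miR156 (-0.79 ± 0.11, adjusted p = 2.44e-05), and the processing factor HYL1 (-0.75 ± 0.16, 0.000985). Of 7 genes of the tasiRNA-ARF pathway, which acts in the same vegetative phase change, 3 fell and 0 rose, with ETT at -0.75 ± 0.14 (0.000356). Norflurazon changed 0 of 7 in either list at day 9 and at day 10. Among 11 partners in leaf initiation and lamina growth, 3 rose and 4 fell between days 8 and 13. TCP3 and TCP4, CIN-type factors that limit cell division in the lamina, rose by 1.27 and 1.22. CYP78A5, which prolongs organ growth, fell by at least 3.37 and the boundary gene CUC3 by at least 1.0. In norflurazon leaves at day 9, 2 of 11 were higher and 0 lower. These were TCP10, another CIN-type factor, by 0.47 ± 0.10 (adjusted p = 0.0149, lost in 3 of 13 alternatives), and CUC3, with means below the array medians in both groups (0.0436, lost in 7 of 13 alternatives). At day 10, 1 of 11 was lower and 0 higher. TCP4 was lower by 0.45 (-0.45 ± 0.09, adjusted p = 0.0380), a call lost in 9 of 13 alternatives, among them without any 1 of the 6 arrays (0.0664 to 0.125).

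Markers of dividing and of photosynthetic leaf cells moved with age, and some of them with norflurazon at day 9. The 4 markers of dividing cells, ANT, GIF1, CYCB1;1 and KNOLLE, all fell between days 8 and 13, and their mean level was 4.22 to 4.73 at day 13 and 7.01 to 7.24 at day 8. Of 5 mesophyll probe sets 3 rose, led by the carbonic anhydrase CA1 (7.04), with mean levels of 12.61 to 13.36 at day 13 and 11.07 to 11.45 at day 8. At day 9, 2 of 4 dividing cell markers were higher in norflurazon leaves, KNOLLE by 0.90 and ANT by 0.80. The mean level of that list was 7.24 to 7.48 in norflurazon leaves and 6.42 to 7.03 in MS leaves at day 9, and 7.28 to 7.47 against 6.94 to 7.08 at day 10. Of the mesophyll probe sets 2 of 5 were higher in norflurazon leaves at day 9 (LHCB3 by 0.61, LHCA1 by 0.51) and 0 of 5 passed at day 10. The mesophyll means were 12.33 to 12.55 in norflurazon leaves and 11.82 to 12.35 in MS leaves at day 9, and 12.66 to 12.83 against 12.94 to 13.08 at day 10. Between days 8 and 13 0 of 7 shoot meristem probe sets passed, 1 of 4 flower markers fell (PI, with means below the array medians at both ages) and 1 of 4 root markers fell (WOX5, at least 1.10). The PI call was lost without repeat 2 of day 8 (adjusted p = 0.235) and without any repeat of day 13 (0.0590 to 0.173). In norflurazon leaves at day 9 WOX5 was higher by 0.65, a call lost without any 1 of the 6 arrays (0.0637 to 0.151). The part of these cell types in the changes of SPL3, SPL9 and the other members was not tested.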

How the data were processed

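Total RNA of leaf 3 was labelled and hybridised, 1 array per sample. The deposited log2 intensities were made by the authors with RMA and TAIR9, per the submitters' processing notes, which give neither a version nor a filter. The table held 0 columns of other samples, and raw intensities were not used here. The lower quartile of an array was 2.31 to 2.38 in the norflurazon experiment and 2.91 to 3.10 over the 6 ages, so each experiment was fitted alone with group means as coefficients (limma 3.58.1, R 4.3.3, lmFit and eBayes, with 8 and 12 residual degrees of freedom). The code was tested on simulated data. Benjamini-Hochberg adjustment ran over 30237 probe sets in each comparison, and 95% intervals come from the moderated fit. The labels call the 3 arrays of a group biological repeats. The p-values rest on the spread between repeats, pooled over all groups of an experiment and moderated across probe sets. The number of repeats sets the precision.

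Members were matched by locus with the probe set suffix removed: 5 carried the suffix 0 and 4 the suffix X (SPL2, SPL4, SPL10 and SPL11), whose meaning the sources used here do not give. Names came from a TAIR10.1 gene table that held 29398 of 29920 loci and were used without coordinates. No sequences were used here. Of 104 listed loci, 10 had no probe set and 1, SPL16 (AT1G76580), was dropped because its name did not match. The members and lists were chosen with earlier results of these data known. Named genes are all members, up to 2 called rises and 2 called falls per list and comparison, a fixed few whatever their values (MIR156A, MIR156C, MIR172B, FUL, SOC1, TOE1, SPL7, AGL15, HXK1), and 3 genes of like pattern per member that qualified. A listed gene is given as "at least" where 1 group lay at or below its array median, and without a size where both did. That wording concerns dim signal and leaves out the standard error.

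Repeat numbers were not used as pairs in the main fit. Over all probe sets, after removal of group means, same-numbered arrays correlated at -0.06 to 0.09 in the norflurazon experiment (18 pairs). In the time course they correlated at -0.25 to 0.17 (45 pairs, 2 of them over 0.1). These correlations over all probe sets do not settle pairing for single genes. Alternatives were a replicate block, quantile normalization again, median centring, a filter on dim probe sets, an intensity trend, only the arrays compared, all 30 arrays in 1 fit, and leaving out each array.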

Additional observations from a re-analysis of the deposited data

Results flagged for a closer look

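The effect of norflurazon at day 10 minus that at day 9 differed from 0, by the interaction term of the limma fit over 12 arrays, for 1 member and for 5 listed genes. It was 1.52 for SPL3 (adjusted p = 0.0134), since norflurazon minus MS was -0.47 at day 10 and -1.99 at day 9. It was -0.68 for TOE1 (adjusted p = 0.0207) and -0.87 for CAO (0.0096). For TCP10, a growth regulator of the CIN type, it was -0.86 (0.00995), with -0.39 at day 10 and 0.47 at day 9. For the light harvesting genes it was -0.74 in LHCB3 (0.0174) and -0.77 in LHCA1 (0.00442).

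The difference between days 10 and 9 was not the same in both experiments for SPL3: in MS leaves minus the time course it was -2.08 (adjusted p = 0.000127, 1 fit over all 30 arrays, a comparison chosen after the values were seen), a lower limit of its size because day 9 of the time course lay below the array median. Groups of 3 arrays are too small for a check of single arrays that stand apart.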

How the results depend on the processing

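With the replicate block, members called went to 0 for norflurazon at day 10 and for days 10 and 9 in norflurazon leaves, where 1 had been called in each, and the F test over ages called 6 members in place of 7, without SPL9 (adjusted p = 0.0688); no other count of members changed. Quantile normalization again left 0 members between days 10 and 9 of the time course. Median centring and an intensity trend each left 0 in norflurazon leaves between days 10 and 9. With only the arrays compared the counts were 0 between days 10 and 9, 1 for norflurazon at day 9 and 0 at day 10, and 0 in norflurazon leaves between the days. In 1 fit over all 30 arrays they were 1 between days 13 and 12 (SPL9), 0 for norflurazon at day 10 and 0 in norflurazon leaves between the days. Leaving out 1 array gave 5 to 7 members in the F test and 5 to 6 between days 13 and 8. It gave 0 to 1 between days 10 and 9, 1 to 2 in MS leaves between the days, and in every case 2 for norflurazon at day 9, 1 for the interaction, 0 for norflurazon at day 10 and 0 in norflurazon leaves between the days.

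Over the members in every comparison and alternative, arrays left out included, 1488 of 1541 values kept their side of the threshold, 47 lost and 6 gained the call. Of the listed genes' called values 446 of 493 remained called and 47 were lost, those of SPL12, MIR156C, LFY, AGO7, PI, TCP10, CUC3, WOX5 and TCP4. No called value in either set changed sign. Quantile normalization again also moved the share of higher calls over all probe sets, to 53.4% from 36.0% between days 9 and 8, to 53.7% from 32.2% between days 10 and 9, to 35.0% from 51.5% for norflurazon at day 10 and to 51.7% from 64.7% for the interaction. No scaling shifted the median of all probe sets by over 0.1. The causes were not tested. Signal at or below the array median limits SPL3 and SPL4 at days 8 and 9, SPL5 at days 8, 10 and 11, SPL11 at day 8 and SPL6 at all 6 ages.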
